A study of Homo sapiens with 6 samples.

Results

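The annexin genes examined were ANXA1, ANXA2, ANXA3, ANXA4, ANXA5, ANXA6, ANXA7, ANXA9, ANXA11 and ANXA13, chosen by gene symbol. Each of the 10 symbols matched 1 Ensembl identifier among the 58302 genes of the count data. RNA-seq was performed on MDA-MB-231, a human breast cancer cell line, in 3 libraries expressing control shRNA and 3 expressing Smyca shRNA #1. Smyca is a lncRNA, and the knockdown used 1 shRNA in 1 cell line, with no treatment or time point named in the labels. The comparison asks which annexin transcripts differed between control and Smyca knockdown cells. Fold changes are given as control over knockdown, so that a positive log2 value means a higher level in control cells.

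Annexins are cytosolic proteins that bind acidic phospholipids of cell membranes in a calcium-dependent manner through a conserved core of annexin repeats. The N-terminal tail differs between members and carries their binding sites for partner proteins. Annexins are known for roles in membrane trafficking, plasma membrane repair and binding of extracellular ligands at the cell surface, and ANXA1 and ANXA2 have been studied widely in invasive breast cancer cells.

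Total counts ranged from 14999307 to 16501085 per library. MIR23AHG, the gene of Smyca, had 405, 317 and 343 counts in the control libraries and 165, 110 and 85 in the knockdown libraries, and these groups did not overlap. Its log2 fold change was 1.53 (SE 0.26, adjusted p = 0.111, edgeR), and it was not called changed by the rule given below. Of 12 markers of mesenchymal or basal breast lines, 10 had at least 10 counts in every library, VIM among them (1122 to 4942 counts). The same held for 7 of 10 luminal and 6 of 8 epithelial markers, among them KRT8 (66358 to 112201) and EPCAM (3826 to 5248). GATA3 (19 to 61) and TFF1 (17 to 44) were among the luminal ones at low counts. The markers that fell short were luminal PGR (0), FOXA1 (0 to 2) and ESR1 (0 to 3) and epithelial RAB25 (0 to 7) and GRHL2 (0 to 17). Epithelial genes such as KRT8 and EPCAM, and hepatic or intestinal ones, do not define a mesenchymal line. In these genes the libraries went against their label, while the low markers did not. CDH1 had 1116 to 4864 counts, HNF4A 1021 to 3064 and VIL1 3443 to 7901, whereas CDX1, APOB, AFP and TTR had 0 in each library. The libraries are therefore referred to by their labels, and the identity of the cells was not tested further. In control repeat 2, the FPKM values did not follow the counts. The reads behind those FPKM values differed from the counts of control repeat 3 beyond sampling noise in 16.9% of genes, against 63.6% for the counts of control repeat 2 itself. Pairs of repeats within a group differed in 43.6% to 67.3% of genes, and control repeat 3 was in both of the most different control pairs.

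Among the 9 annexins with enough counts to be tested, ANXA1 showed the largest difference, with a 2.85-fold higher level in control than in knockdown cells. A gene was called changed where control over knockdown reached 1.5 or fell to 0.66 or lower and the adjusted p was under 0.05 (edgeR quasi-likelihood test, Benjamini-Hochberg adjustment over all genes tested). By this rule 0 of the 9 annexin genes were called, and 4 of 15075 genes were called in all, or 0.0265%. At an unadjusted p under 0.05, 1 of 9 annexins passed, against 19.2% of all genes tested. The libraries of the groups did not overlap for 1 of 9 annexins, against 24.8% of all genes in either direction. That gene was ANXA1 in both cases. The median log2 fold change was 0.09 over the 9 annexins, 7 of which were positive and 2 negative, and 0.036 over all genes tested.

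ANXA1, a phospholipid-binding protein induced by glucocorticoids whose N-terminal peptide acts on formyl peptide receptors, lies on the plus strand of chromosome 9 (GRCh38, 73151865 to 73170393). It had 1606, 1183 and 868 counts in control cells and 342, 412 and 486 in knockdown cells. Normalized CPM, the counts scaled by TMM library size, were 99.1, 72.8 and 55.6 in control and 21.7, 26.1 and 32.1 in knockdown cells. Every control library was above every knockdown library, at 55.6 and above against 32.1 and below. The log2 fold change was 1.51 (SE 0.24, 95% interval 0.96 to 2.06) and the adjusted p was 0.111 in the edgeR quasi-likelihood test, so that ANXA1 was not called. Without control repeat 3, ANXA1 was called, with a log2 fold change of 1.68 and an adjusted p of 0.00510 (edgeR). Leaving out any other library gave no call, and over all such fits the log2 fold change ran from 1.27 to 1.68. ANXA1 was called by DESeq2 (adjusted p = 1.24e-05), by the edgeR exact test (adjusted p = 2.00e-05) and without a filter on low counts (adjusted p = 3.00e-05). With the reads behind the FPKM values of control repeat 2, its level in that library was 57.0 CPM in place of 72.8, and the log2 fold change was 1.39 (adjusted p = 0.0835, edgeR). The direction was thus the same in each of 14 alternatives, while the call was made in 4. Those 4 also called more genes in all, at 3.01% without the filter, 5.44% with DESeq2, 5.04% with the exact test and 10.5% without control repeat 3.

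Some marker genes differed between the same libraries as ANXA1. VIM, which encodes vimentin, had 305, 200 and 148 CPM in control and 71.2, 105 and 130 in knockdown cells, and was not called (adjusted p = 0.131, edgeR). TGFBI, of the same mesenchymal list, lay the other way without overlap, at 76.4 to 83.8 CPM in control and 89.0 to 118 in knockdown cells. NNMT of this list was also negative in log2 fold change (-1.09, at 5 to 75 counts). Positive values were those of VIM (1.09), CAV1 (1.01), CD44 (0.94), ZEB1 (0.71), LOX (0.66), CAV2 (0.65), MMP14 (0.51), AXL (0.37) and MSN (0.04). Among these, VIM and ZEB1 did not overlap between groups, and none was called. SPARC was not tested (0 to 11 counts). The summed level of the 16 gut and liver markers was 165 to 282 CPM per kilobase in control and 314 to 388 in knockdown cells, with 6 of the 16 at 10 counts or more in every library. VIL1 and HNF4A made up most of this sum, at means of 171 and 64.8 CPM per kilobase over the 6 libraries. HNF4A itself overlapped between groups, and LGALS4 lay the other way without overlap, at 5 to 21 counts. The summed level of the 12 mesenchymal markers was 573 to 1152 in control and 646 to 891 in knockdown cells. MSN was the largest part of this sum, at a mean of 468 CPM per kilobase over the 6 libraries. The summed epithelial markers lay at 540 to 624 and 465 to 571, and the luminal ones at 5705 to 7248 and 6187 to 8512. Their part in the ANXA1 difference was not tested, and a different make-up of the cultures cannot be told apart from a change within cells in these bulk samples.

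**Figure D1:**
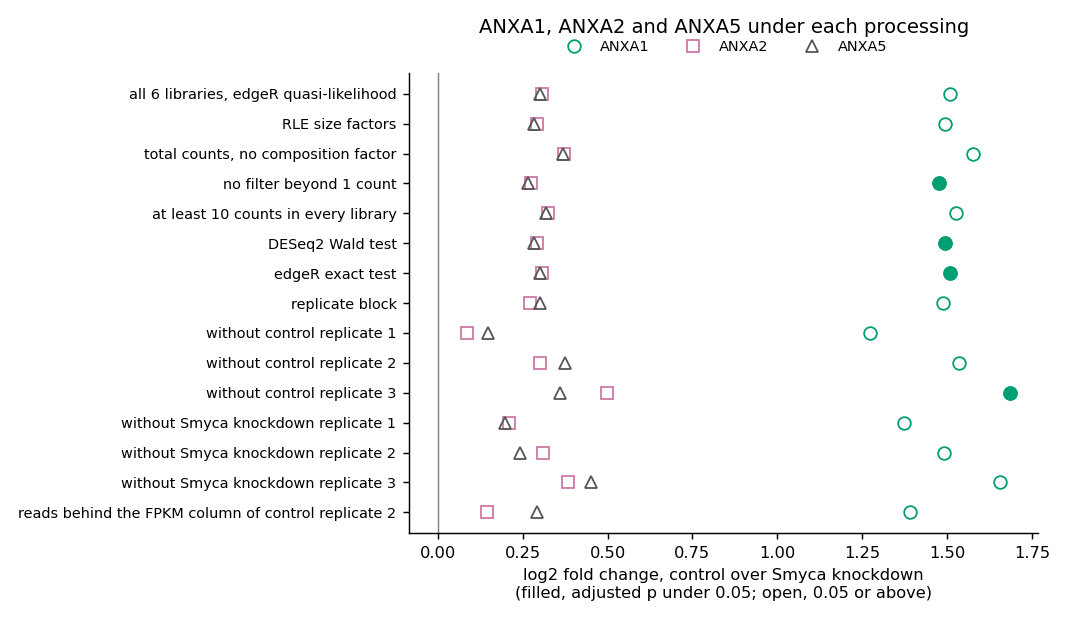
Log2 fold change of control over Smyca knockdown (horizontal axis) for ANXA1, ANXA2 and ANXA5 under each processing (vertical axis), with filled symbols where the adjusted p was under 0.05. ANXA1 stayed between 1.27 and 1.68 and had an adjusted p under 0.05 in 4 alternatives, whereas ANXA2 stayed between 0.09 and 0.50 with none.

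The start regions of ANXA1 and ANXA2, the tested annexin with the largest difference and the most abundant one, are shown to compare their base composition and short motifs. The windows hold the 250 bases before the RefSeq start site (GRCh38.p14), at chr9:73151615-73151864 on the plus strand for ANXA1 and chr15:60397987-60398236 on the minus strand for ANXA2. Capitals mark matches to the motifs searched on both strands.
ANXA1: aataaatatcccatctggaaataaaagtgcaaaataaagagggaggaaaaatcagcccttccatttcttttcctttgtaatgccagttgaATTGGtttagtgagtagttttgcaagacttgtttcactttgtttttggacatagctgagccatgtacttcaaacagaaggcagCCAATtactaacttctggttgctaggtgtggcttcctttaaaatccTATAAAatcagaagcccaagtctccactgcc
ANXA2: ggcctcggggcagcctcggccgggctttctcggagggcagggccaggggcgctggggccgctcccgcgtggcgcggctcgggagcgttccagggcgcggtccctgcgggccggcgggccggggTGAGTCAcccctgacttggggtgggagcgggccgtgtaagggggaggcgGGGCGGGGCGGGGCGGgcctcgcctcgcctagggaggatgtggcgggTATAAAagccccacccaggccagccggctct
The ANXA1 window had a GC content of 38.4% and 0 CpG dinucleotides, and 10.8% of 35116 promoter windows were at or below this GC content. The ANXA2 window had a GC content of 78.0% and 28 CpG dinucleotides, against medians of 58.0% and 11 over all windows. Both hold a TATA box (TATAAA) from 31 to 26 bases before the start site, a motif present in 10.7% of all windows. ANXA1 holds 2 CCAAT boxes (CCAAT, in 32.0% of windows) and no GC box. ANXA2 holds 1 AP-1 site (TGAGTCA, in 4.20%) and 3 overlapping GC boxes (GGGCGG, in 42.6%). Neither window holds the E-box CACGTG (in 6.34%), the palindrome GTCTAGAC of SMAD binding elements (in 0.182%) or CAGAC (in 38.0%). CAGAC was searched as a separate SMAD motif and is not contained in that palindrome. RefSeq promoter entries existed for 9 of the 10 annexin genes, 13 in all, and the E-box occurred in 2 of them, 1 each of ANXA4 and ANXA6. The other annexin windows had 4 to 36 CpG dinucleotides and GC contents up to 78.8%, and the ANXA1 window had the lowest value of each. These matches describe the sequence only.

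ANXA2, which forms a tetramer with S100A10 and binds plasminogen at the cell surface, lies on the minus strand of chromosome 15 (60347134 to 60402883). Its levels were 1222, 952 and 669 CPM in control and 667, 774 and 856 in knockdown cells. The control libraries spread over a wider range than the knockdown libraries and included both the highest and nearly the lowest level. The log2 fold change was 0.31 (SE 0.22, 95% interval -0.20 to 0.82, adjusted p = 0.482 by edgeR), so that a difference of up to 0.82 in log2 units toward control remained within the interval. With the reads behind the FPKM values of control repeat 2, the level in that library was 676 CPM and the log2 fold change was 0.15. Some reads could be shared with the processed pseudogene ANXA2P2, since 8.19% of 150-base windows of the ANXA2 mRNA occurred in it unchanged. ANXA2P1, ANXA2P2 and ANXA2P3 had at most 4 counts in any library. S100A10, the partner of ANXA2, had 281, 224 and 125 CPM in control and 200, 174 and 95.4 in knockdown cells, and the groups overlapped.

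ANXA5, the phosphatidylserine-binding member used to stain apoptotic cells, lies on chromosome 4 (minus strand, 121667946 to 121696995). ANXA5 had 178, 131 and 134 CPM in control and 104, 111 and 146 in knockdown cells, a log2 fold change of 0.30 (SE 0.19, adjusted p = 0.418, edgeR). Only the highest knockdown library lay within the range of control. ANXA3, also on chromosome 4 (plus strand, 78551747 to 78610451), had 109, 77.9 and 81.8 CPM in control and 96.1, 85.1 and 55.4 in knockdown cells. ANXA3 had a log2 fold change of 0.18 (SE 0.23) with overlapping groups, and knockdown repeat 3 was the lowest library. ANXA4, on chromosome 2 (plus strand, 69644425 to 69827112), had 101, 103 and 82.2 CPM in control and 116, 103 and 75.1 in knockdown cells. Its log2 fold change was -0.04 (SE 0.19), and the range of the control libraries lay within that of the knockdown libraries. The gene AAK1 overlaps ANXA4 on the opposite strand with 250 to 558 counts per library, and the strand setting of the counting is not given in the sources used here.

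ANXA6, which carries a duplicated annexin core, lies on chromosome 5 (minus strand, 151100706 to 151157815). ANXA6 had 42.8, 53.5 and 31.6 CPM in control and 46.6, 39.3 and 52.1 in knockdown cells, a log2 fold change of -0.11 (SE 0.21). With the reads behind the FPKM values of control repeat 2, that library had 29.3 in place of 53.5 CPM, and the log2 fold change of ANXA6 was -0.42 (SE 0.19, adjusted p = 0.250, edgeR). ANXA7 and ANXA11 have long N-terminal tails and both lie on the minus strand of chromosome 10, at 73375101 to 73414076 and 80150889 to 80205572. ANXA7 was the steadiest annexin, with 98.6, 103 and 92.4 CPM in control and 102, 94.5 and 92.3 in knockdown cells. The 95% interval of its log2 fold change of 0.03 ran from -0.27 to 0.33 and was the narrowest of the 9. ANXA11, which tethers RNA granules to lysosomes, had 535, 442 and 341 CPM in control and 374, 429 and 440 in knockdown cells. The knockdown libraries of ANXA11 lay within the range of the control libraries, and the log2 fold change was 0.09 (SE 0.19).

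ANXA9, an annexin whose calcium-binding sites are degenerate, lies on chromosome 1 (plus strand, 150982249 to 150995634) and was the least abundant of the genes tested. It had 12.5, 10.4 and 6.98 CPM in control and 10.6, 9.63 and 8.85 in knockdown cells, a log2 fold change of 0.04 (SE 0.26). ANXA9 had 109 to 203 counts per library and the widest interval of the 9, from -0.55 to 0.64. ANXA13, known from intestinal and kidney epithelium, lies on the minus strand of chromosome 8 (123680794 to 123737402) and had 0, 4 and 2 counts in control and 14, 14 and 3 in knockdown cells. The groups overlapped at 4 and 3 counts, and ANXA13 did not pass the filter on low counts with all 6 libraries. Without the filter its log2 fold change was -2.36 (adjusted p = 0.145, edgeR). It passed the filter when any 1 control library or knockdown repeat 3 was left out, with log2 fold changes of -1.77, -3.24 and -2.36 without control repeats 1, 2 and 3 and -2.76 without knockdown repeat 3. None of these was called (adjusted p from 0.168 to 0.484, edgeR), and the reads behind the FPKM values of control repeat 2 held 0 for this gene. At this depth a difference in ANXA13 was not resolved.

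**Figure D2:**
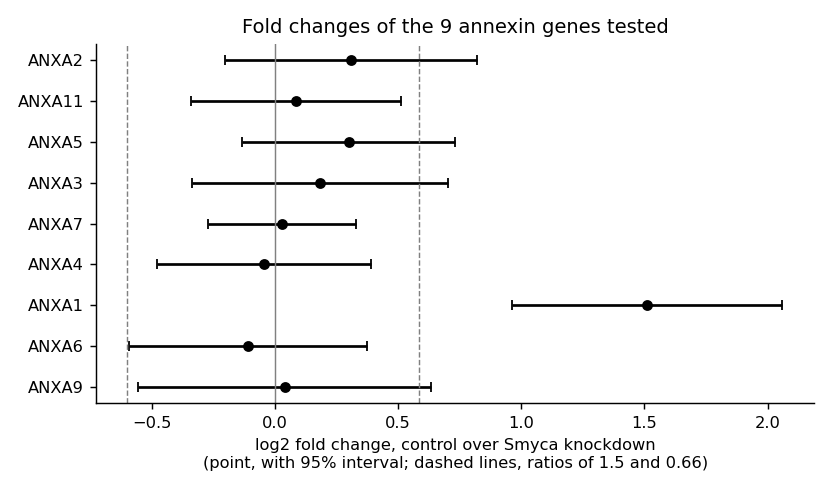
Log2 fold change of control over Smyca knockdown (horizontal axis) for the 9 annexin genes tested, ordered by level, as points with 95% intervals, with dashed lines at ratios of 1.5 and 0.66. The interval of ANXA1 runs from 0.96 to 2.06 and is the only one of the 9 that does not include 0. The intervals are not adjusted over genes, and ANXA1 was not called (adjusted p = 0.111, edgeR).

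Levels between genes were compared as normalized CPM per kilobase of the length behind the FPKM values. ANXA2 was the most abundant annexin, at 979 ± 240 CPM per kilobase (SD, n = 6 libraries), followed by ANXA11 at 189 ± 29.6 and ANXA5 at 133 ± 26.4. ANXA2 lay above ANXA11 in each of the 6 libraries without overlap of their ranges. ANXA11 and ANXA5 overlapped in range, although ANXA11 was higher within each library. This order rests on the length used, since with the lengths of MANE Select transcripts ANXA5 made up more of the annexin sum (9.39% in control and 9.12% in knockdown cells) than ANXA11 (6.69% and 7.68%). ANXA3, ANXA7 and ANXA4 followed at 75.5 ± 16.2, 70.8 ± 3.41 and 65.0 ± 10.2, and their ranges overlapped. ANXA1 at 46.1 ± 27.4 and ANXA6 at 40.9 ± 7.61 could not be ordered over all libraries, since ANXA1 was the higher in 3 of 6. With MANE Select lengths the mean share of ANXA1 was above that of ANXA6 in both groups (5.49% against 1.53% in control, 2.36% against 1.99% in knockdown cells), and in control also above ANXA7 (4.24%) and ANXA4 (3.76%). By the length behind the FPKM values, those 3 were the control libraries, at 49.99 to 89.1 CPM per kilobase for ANXA1, against 19.5 to 28.9 in the knockdown libraries. ANXA9 at 8.41 ± 1.59 and ANXA13 at 0.364 ± 0.366 were the lowest, without overlap with their neighbours above.

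The summed level of the 10 annexins was 2187, 1753 and 1329 CPM per kilobase in control and 1342, 1468 and 1570 in knockdown cells, so the groups overlapped. ANXA2 contributed 61.2% ± 3.30 (SD, n = 3) of this sum in control and 59.8% ± 2.77 in knockdown cells. ANXA1 contributed 4.08%, 3.73% and 3.76% in the control libraries and 1.46%, 1.60% and 1.84% in the knockdown libraries. Its mean share was 3.86% ± 0.190 in control and 1.63% ± 0.194 in knockdown cells, and the spread of the share between control libraries was small beside that of its CPM. ANXA11 contributed 11.1% ± 0.263 and 12.5% ± 0.323, and its shares did not overlap either, at 10.8% to 11.3% in control and 12.3% to 12.9% in knockdown cells. Shares within a library are parts of the same sum, so a lower share of ANXA1 goes with higher shares elsewhere. The CPM of ANXA11 itself overlapped between groups (log2 fold change 0.09). With MANE Select lengths, an alternative chosen after the data had been seen, the share of ANXA1 was 5.49% in control and 2.36% in knockdown cells, and that of ANXA11 was 6.69% and 7.68%.

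ANXA1 was then set against each other annexin within the same library, which removes the effect of library scaling. The log2 ratio of ANXA1 to ANXA2 was -3.62, -3.71 and -3.59 in control and -4.94, -4.89 and -4.74 in knockdown cells, a difference of 1.22. The ratio to ANXA5 differed by 1.19 and the ratio to ANXA6 by 1.62, the ends of the range over the 8 other annexins tested. In each of the 8 ratios every control library was above every knockdown library. The two-sided exact permutation test gave p = 0.1 for each, the smallest that 3 against 3 libraries allow, and 0.125 after adjustment over 10 ratios. The 8 ratios share the ANXA1 values, which already did not overlap, so they describe the same difference and do not add to it. The ratio of S100A11, a partner of ANXA1, to ANXA1 overlapped between groups (exact permutation p = 0.2, adjusted 0.222), as did that of S100A10 to ANXA2 (exact permutation p = 0.8, adjusted 0.8).

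Partner genes were examined by role. Of the 27 genes described, 22 were tested, 0 were called by the edgeR quasi-likelihood test, and 6 had an unadjusted p under 0.05, beside 19.2% of all genes. The groups did not overlap for 6 of the 22, beside 24.8% of all genes. Of these, 4 were higher in control, beside 12.4% of all genes. The median log2 fold change of the 22 was 0.15. DESeq2 and the edgeR exact test each called PLAU, PLAUR and S100A6, all higher in control, and the quasi-likelihood test called these 3 when control repeat 3 was left out. These fits called 5.44%, 5.04% and 10.5% of all genes they tested. Without a filter on low counts these 3 and AHNAK were called, beside 3.01% of all genes.

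The plasmin system, to which ANXA2 is linked as a plasminogen receptor, held PLAU and PLAUR, the tested partners with the largest differences. PLAU, the urokinase-type plasminogen activator, had 47.9, 32.5 and 23.1 CPM in control and 12.6, 11.02 and 8.85 in knockdown cells (log2 fold change 1.67, SE 0.28). PLAUR, its receptor, had 79.97, 54.0 and 30.5 CPM in control and 18.3, 17.0 and 18.4 in knockdown cells (1.61, SE 0.31). In both genes control repeat 1 was highest and control repeat 3 lowest among control libraries, and the groups did not overlap. PLGRKT, a plasminogen receptor, had a log2 fold change of 0.58 (SE 0.23) without overlap, and PLAT, the tissue-type activator, one of -0.20 (SE 0.28) with overlap. PLAU and PLAUR had an adjusted p of 0.111 (edgeR), the same as ANXA1, and PLGRKT one of 0.228. The median log2 fold change of the 4 genes was 1.095, beside 0.036 over all genes.

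Among the S100 proteins that dimerize and bind annexin tails, S100A6 had 923, 731 and 815 CPM in control and 379, 450 and 520 in knockdown cells. Its log2 fold change was 0.87 (SE 0.17, adjusted p = 0.111, edgeR) and the groups did not overlap. S100A11 and S100A10 had values of 0.44 (SE 0.22) and 0.43 (SE 0.34), and S100A4 had -0.26 (SE 0.20), each with overlapping groups. Of the receptors, FPR1, FPR2 and FPR3, on which the N-terminal peptide of ANXA1 acts, had 0 counts in each library. ANXA2R had 21 to 53 counts and a log2 fold change of 0.67 (SE 0.37) with overlap.

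Among 11 genes of membrane repair and calcium sensing, 10 were tested, and 6 were positive and 4 negative, with a median of 0.06. The largest differences were those of DYSF (dysferlin), at 1.56 (SE 0.63), AHNAK, a large scaffold bound by the ANXA2 and S100A10 complex, at 1.09 (SE 0.47), and PDCD6, a calcium sensor that binds ANXA7 and ANXA11, at -0.26 (SE 0.20). All 3 overlapped between groups, and AHNAK ranged from 324 to 1180 CPM within control cells alone. Over the alternatives, the log2 fold change ran from 0.97 to 2.38 for DYSF and from 0.46 to 1.55 for AHNAK. CAPNS1, the small calpain subunit, was the tested gene of this role whose groups did not overlap, at 263 to 280 CPM in control and 287.5 to 333 in knockdown cells (-0.22, SE 0.14). Of the scramblases and phospholipase, XKR8 had -0.54 (SE 0.37), ANO6 0.30 (SE 0.26) and PLSCR1 -0.27 (SE 0.18). PLSCR1 did not overlap and was higher in knockdown cells, at 14.5 to 20.04 CPM in control and 20.6 to 22.6 in knockdown cells. The phospholipase PLA2G4A was too low to be tested, at 1, 0 and 3 counts in control and 9, 15 and 6 in knockdown cells. Without the filter on low counts its log2 fold change was -2.86 (adjusted p = 0.0704, edgeR), and it was not called.

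The genes whose profile over the 6 libraries was closest to that of ANXA1 were SH3RF2, UPP1 and FOXD1, at root mean square differences in log2(CPM + 1) of 0.083, 0.154 and 0.181 after centring, where the ANXA1 profile itself varied by 0.780 about its mean. SH3RF2 had 18.1, 11.5 and 9.61 CPM in control and 3.17, 4.12 and 5.81 in knockdown cells. For ANXA2 the closest were STAMBP, BTBD10 and DLGAP4, at 0.056, 0.058 and 0.058, where ANXA2 varied by 0.305. All profiles come from the same 6 libraries, and 10461 genes were compared, so likeness over so few libraries is a description only.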

How the data were processed

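Total RNA of 3 control and 3 Smyca knockdown repeats was depleted of rRNA, prepared strand-specifically and sequenced by a company for the authors. Reads were mapped to GRCh38 with TopHat v2.0.12 (TopHat2 in the submitters' processing notes) and counted per gene with HTSeq. The deposited columns hold raw read counts per Ensembl gene and FPKM values computed by the authors. Symbols came from GENCODE release 44, which matched 57532 of 58302 identifiers. Counts were tested with edgeR 4.0.16 in R 4.3.3 (TMM normalization, filterByExpr, quasi-likelihood test of control against knockdown, Benjamini-Hochberg adjustment). The thresholds were those of the study, whose DESeq version was not used here. SEs are the absolute log2 fold change divided by the square root of F. Gene lengths were taken from counts and FPKM, which were related by the same length within 1% for 100% of genes in 5 libraries and 2.35% in control repeat 2. For the latter, whole reads were recovered from FPKM (16743444 in all) as an alternative. The motif and GC values came from RefSeq promoter sequences. The code was tested on simulated data.

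The members and lists were chosen with earlier results of these data known. All 10 annexins were named, as were MIR23AHG, tested partners of the first 3 roles, the 3 partners with the largest absolute log2 fold change in the other roles, and the 3 genes closest in profile to ANXA1 and to ANXA2. Those closest genes had a mean of at least 100 normalized counts. PLSCR1, ANO6 and XKR8 were all the genes tested in their role. The result of 1 partner gene is not reported here, and counts over the list leave it out. Marker genes, CAPNS1 and PLA2G4A were named after their values had been seen.

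As alternatives, the fit was run with RLE size factors or total counts only, with the filter dropped or set to 10 counts per library, with DESeq2 1.42.0 or the edgeR exact test, with a block for the repeat number, and with each library left out. Others used the reads behind the FPKM values of control repeat 2 and, added later, MANE Select lengths.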

Additional observations from a re-analysis of the deposited data

How the results depend on the processing

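The number of genes changed was 4 in the comparison reported. It was 8 with total counts and no composition factor, 916 without a filter beyond 1 count, 820 with DESeq2, 760 with the edgeR exact test and 10 with the reads behind the FPKM values of control repeat 2. Leaving out 1 library gave 0 to 1628, with 1628 without control repeat 3. The number of annexins changed was 0 in the comparison reported and 1, ANXA1, without a filter, with DESeq2 and with the edgeR exact test, and 0 to 1 when 1 library was left out. The ANXA1 log2 fold change was 1.48 without a filter, 1.49 with DESeq2, 1.51 with the edgeR exact test, and 1.27 to 1.68 when 1 library was left out.

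Fold changes near 0 turned sign. ANXA4 was 0.022 with total counts. ANXA7 was -0.0044 without a filter. With the reads behind the FPKM values, ANXA7 was -0.040, ANXA9 -0.18 and ANXA11 -0.025. Leaving out 1 library gave -0.027 to 0.34 for ANXA3, -0.21 to 0.089 for ANXA4, -0.31 to 0.063 for ANXA6, -0.013 to 0.064 for ANXA7, -0.15 to 0.24 for ANXA9 and -0.076 to 0.23 for ANXA11. None of these passed the threshold. The cause was not tested. Shares of ANXA1 with MANE Select lengths were 5.49% in control and 2.36% in knockdown cells, and those of ANXA11 were 6.69% and 7.68%, below ANXA5.

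The repeat number as a block gave 0 changed genes, and ANXA1 had a log2 fold change of 1.49 (adjusted p = 0.176, edgeR). Repeats of the same number correlated at 0.054, 0.094 and 0.021 in their deviations from the group means. Repeats of different numbers correlated at -0.142 to 0.055. Values this small do not settle whether the repeats were paired. ANXA13, at 0 to 14 counts per library, passed the filter in 4 of the 6 fits with 1 library left out, with log2 fold changes from -3.24 to -1.77.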

Other observations

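Annexin genes outside the 10 examined were at or near 0. They were named after their values had been seen. ANXA8 had at most 2 counts in any library, ANXA8L1 at most 4 and ANXA10 at most 1.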
